A study of Mus musculus with 21 samples.

Results

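The 40 genes described here make cholesterol and fatty acids, carry or export sterols, or control the synthesis of both. They were chosen by gene name from the 45706 genes of the count table, and each name matched 1 gene. By known role they fall into 5 regulators of the SREBP transcription factors, 18 enzymes of the mevalonate and sterol pathway, 5 genes of sterol transport and efflux, and 12 fatty acid genes. They were measured by RNA-seq of polyadenylated RNA, from stranded libraries, in a prostate cancer line of the mouse, Myc-CaP, whose growth a Myc transgene drives, and in tumours that this line formed in FVB mice. The knockout (KO) lines lack functional IRE1α, the product of Ern1. All of them were made by CRISPR Cas9 with 1 guide RNA, and the wild-type (WT) line carries the same Myc transgene. The tumour groups are KO1, KO2 and KO3 tumours with 3 libraries each and WT tumours with 4. The cell groups are KO1, KO2 and KO3 cells with 2 libraries each and WT cells with 2. The 3 KO lines are set against 1 WT line, and the labels do not say whether a line is a clone. They do not say either that the cell libraries are separate cultures, so that p-values rest on the spread between libraries, which may be technical. The age of the mice is not given in the sources used here. Total estimated counts ran from 15994285 to 27497796 per library.

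Cholesterol is built from acetyl-CoA through mevalonate, farnesyl diphosphate, squalene and lanosterol, and fatty acids are built from the same acetyl-CoA by acetyl-CoA carboxylase and fatty acid synthase and then elongated and desaturated. Both routes are switched on by the SREBPs, membrane-bound transcription factors that SCAP escorts from the endoplasmic reticulum (ER) to the Golgi for cleavage when sterols are low, while the INSIG proteins hold SCAP back when sterols are plentiful. SREBP-2, from Srebf2, acts mostly on sterol genes and the SREBP-1c form from Srebf1 mostly on fatty acid genes. IRE1α senses stress in the ER and cuts Xbp1 mRNA with its RNase domain. The spliced mRNA encodes XBP1s, a transcription factor that is known to drive lipid synthesis genes in mouse liver.

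Levels below are CPM, the counts of a gene scaled to the library's size, with TMM scaling over all 21 libraries. Differences are log2 fold changes ± standard error (SE), KO over WT unless another order is given. A gene was called changed at an adjusted p under 0.05 in the quasi-likelihood test of edgeR, with Benjamini-Hochberg adjustment over all genes tested.

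Ern1 mRNA was present in KO libraries, at 171 to 196 CPM in KO cells against 118 and 133 CPM in WT cells, so its level does not check the labels. Its log2 fold change was 0.56 ± 0.09 in cells (edgeR adjusted p = 0.00341) and 0.03 in tumours. Xbp1 was at 52.7 to 96.2 CPM in KO cells against 113 and 111 CPM in WT cells and was not called (-0.64 ± 0.21, edgeR adjusted p = 0.0668), nor was it in tumours (-0.25, edgeR adjusted p = 0.465). Targets of XBP1s do. Sec24d, a coat protein of ER export vesicles, was at 28.1 to 29.3 CPM in KO1 cells, 28.2 to 29.7 CPM in KO2 cells and 30.6 to 36.1 CPM in KO3 cells, against 151 to 157 CPM in WT cells. In tumours it was at 18.1 to 21.2 CPM in KO1 and 15.5 to 17.8 CPM in KO2, but at 50.5 to 58.6 CPM in the libraries labelled KO3, against 70.9 to 86.7 CPM in WT. Dnajb9, an ER cochaperone, was at 11.1 to 16.4 CPM in KO1, 11.4 to 15.3 CPM in KO2 and 36.6 to 40.9 CPM in KO3 tumours, against 40.7 to 54.8 CPM in WT tumours. The KO3 tumours thus lay nearer to WT than the other KO tumours did for both targets, and results of KO against WT tumours that were called are given with and without them. WT tumour 1 held much more RNA of adipocytes, muscle and neutrophils than the other WT tumours, with summed marker levels of 913, 4831 and 239 CPM against at most 171, 61.4 and 4.3 CPM. In WT tumour 4 the single gene Yam1 held 24.0% of all counts, where no other tumour exceeded 8.47%. WT tumours 3 and 4 carry the same number in their descriptions and are kept as separate libraries. In a bulk sample, fewer cells of a type and less RNA per cell cannot be told apart. Of the markers of epithelium, Krt8 was well expressed, and Krt18, Epcam and Cdh1 were at about 1 CPM or below in every library.

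The promoters are shown first, with the counts of a few motifs by role. RefSeq promoters in GRCm38.p6 were found for 31 of the 40 genes, and the 250 bases before each start were searched on both strands. The box bound by NF-Y, a factor that works beside SREBP, reads ATTGG. It was present in 13 of 15 promoters of sterol enzymes (86.7%), in 4 of 5 of SREBP regulators (80%) and in 3 of 9 of fatty acid genes (33.3%), against 33.8% of 32817 promoters of the same length. The window of Acaca, chr11:84195188-84195437, lies inside the gene as GENCODE M21 places it, at 84129672 to 84401651. That window held none of the motifs searched and counts among the 9. The GC box GGGCGG was present in 93.3% of the sterol enzyme promoters and 44.4% of the fatty acid gene promoters, against 32.7% of all. The sterol response element TCACNCCAC was found in 1 of the 31, that of Hmgcs1, against 1.05% of all promoters. The unfolded protein response element TGACGTGG was in 0 of 31, against 0.564% of all, and the shorter CCACG core of the ER stress element was in 53.3% of the sterol enzyme promoters and 44.4% of the fatty acid gene promoters, against 28.3% of all. These matches are letters found in a window and not measured binding sites. The 5 windows below run 5′ to 3′ toward the gene, with matches to ATTGG (or its complement) and to TCACNCCAC in capitals. Hmgcs1 (HMG-CoA synthase, chr13:119690101-119690350, plus strand) is shown for its sterol response element, Mvk (mevalonate kinase, chr5:114444019-114444268, plus strand) and Mvd (mevalonate diphosphate decarboxylase, chr8:122443423-122443672, minus strand) for their repeated NF-Y boxes, Fasn (fatty acid synthase, chr11:120824548-120824797, minus strand) as 1 of the 3 fatty acid genes that have the box, and Abca1 (a cholesterol exporter, chr4:53159896-53160145, minus strand) as a member with no capitals whose level was higher in KO1 and KO2 cells. In Fasn the last stretch of capitals is a pair of boxes that overlap on opposite strands.
Hmgcs1: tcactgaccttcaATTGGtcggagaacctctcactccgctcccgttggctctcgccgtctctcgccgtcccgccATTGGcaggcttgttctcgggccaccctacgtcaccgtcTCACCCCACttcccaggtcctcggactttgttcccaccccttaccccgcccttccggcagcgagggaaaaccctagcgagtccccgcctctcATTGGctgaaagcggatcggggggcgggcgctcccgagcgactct
Mvk: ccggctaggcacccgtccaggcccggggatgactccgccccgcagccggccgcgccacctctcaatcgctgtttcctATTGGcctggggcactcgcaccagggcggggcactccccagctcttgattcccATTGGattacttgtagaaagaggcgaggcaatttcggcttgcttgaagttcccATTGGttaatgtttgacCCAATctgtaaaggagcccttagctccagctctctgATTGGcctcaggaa
Mvd: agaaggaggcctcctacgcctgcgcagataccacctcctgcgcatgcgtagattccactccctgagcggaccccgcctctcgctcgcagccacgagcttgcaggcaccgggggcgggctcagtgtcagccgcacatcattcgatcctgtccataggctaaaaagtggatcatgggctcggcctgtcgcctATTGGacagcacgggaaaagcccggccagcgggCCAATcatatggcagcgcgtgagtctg
Fasn: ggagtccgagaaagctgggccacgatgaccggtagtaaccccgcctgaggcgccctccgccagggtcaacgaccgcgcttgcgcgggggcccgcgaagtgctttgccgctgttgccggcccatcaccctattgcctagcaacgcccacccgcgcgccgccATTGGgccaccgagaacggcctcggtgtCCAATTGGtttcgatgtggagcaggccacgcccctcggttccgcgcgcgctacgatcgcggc
Abca1: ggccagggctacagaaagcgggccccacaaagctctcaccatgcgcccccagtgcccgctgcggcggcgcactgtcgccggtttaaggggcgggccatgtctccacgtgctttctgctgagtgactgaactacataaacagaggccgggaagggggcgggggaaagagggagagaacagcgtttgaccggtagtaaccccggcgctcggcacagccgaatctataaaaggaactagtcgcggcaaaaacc

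In cultured cells both arms were lower in the IRE1α knockout. Of the 39 members that could be tested, 24 fell in KO cells and 0 rose, where 14.8% of the 12254 genes tested were called, 9.76% lower and 4.99% higher. The median log2 fold change of the members was -0.51, against 0.02 over all genes tested. By role, 4 of 5 SREBP regulators, 12 of 18 mevalonate and sterol enzymes, 1 of 4 sterol transport genes and 7 of 12 fatty acid genes fell, with medians of -0.39, -0.53, -0.29 and -0.49. For 30 of the 39 members all 6 KO libraries lay below both WT libraries, as they did for 19.3% of all genes. Elovl5, an elongase of polyunsaturated fatty acids, was the 1 member with all KO libraries above WT, as for 16.1% of all genes, and it was not called.

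Among the regulators, Srebf2 was at 130.3 and 135 CPM in KO1 cells, 152 and 161 CPM in KO2 cells and 158 and 168 CPM in KO3 cells, against 247 and 259.6 CPM in WT cells. Every KO library lay below both WT libraries, and the log2 fold change was -0.75 ± 0.10 (edgeR adjusted p = 0.00126). Insig1, a sterol-responsive brake on SREBP cleavage and itself an SREBP target, had the largest change of the 5: it was at 15.7 and 18.4 CPM in KO1 cells, 15.4 and 16.6 CPM in KO2 cells and 29.4 and 30.6 CPM in KO3 cells, against 48.3 and 48.1 CPM in WT cells. Its log2 fold change was -1.19 ± 0.26 (edgeR adjusted p = 0.0150). Srebf1 was at 93.2 CPM in the lowest, 98.9 in the median and 113 in the highest KO library, against 122 and 123 CPM in WT cells. The groups were again separate but closer together, with a log2 fold change of -0.28 ± 0.08 (edgeR adjusted p = 0.0442). Insig2, the second INSIG, fell by 0.39 ± 0.11 (edgeR adjusted p = 0.0462). Scap, the escort protein, had a log2 fold change of -0.15 and was not called.

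Sterol enzymes of both early and late steps fell. Fdps, which makes farnesyl diphosphate, was at 27.3 and 22.3 CPM in KO1 cells, 22.2 and 19.6 CPM in KO2 cells and 28.1 and 29.7 CPM in KO3 cells, against 57.9 and 57.4 CPM in WT cells. Every KO library lay far below both WT libraries, and the log2 fold change was -1.21 ± 0.14 (edgeR adjusted p = 0.000522). Cyp51, the lanosterol demethylase, was at 31.1 and 28.6 CPM in KO1, 32.0 and 29.5 CPM in KO2 and 36.6 and 34.9 CPM in KO3 cells, against 58.1 and 62.2 CPM in WT cells. It had the smallest adjusted p of the role, 0.000354 by edgeR, with a log2 fold change of -0.91 ± 0.10, and no KO library came near WT. Pmvk, phosphomevalonate kinase, ran from 39.0 to 43.6 CPM with a median of 40.6 CPM in KO cells, against 60.9 and 61.1 CPM in WT cells. Its fold change was -0.58 ± 0.07 (edgeR adjusted p = 0.000469), and the 3 KO lines were alike. Lss, lanosterol synthase, ran from 31.0 to 36.6 CPM with a median of 32.6 CPM in KO cells, against 53.1 and 53.3 CPM in WT cells, a log2 fold change of -0.67 ± 0.08 (edgeR adjusted p = 0.000521).

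The other called sterol enzymes fell by less or varied more between lines. Idi1, the isopentenyl diphosphate isomerase, was at 18.1 and 16.7 CPM in KO1 cells, 20.0 and 14.1 CPM in KO2 cells and 26.4 and 25.2 CPM in KO3 cells, against 42.9 and 43.5 CPM in WT cells, a log2 fold change of -1.10 ± 0.20 (edgeR adjusted p = 0.00618). Dhcr7, which makes cholesterol from 7-dehydrocholesterol, was at 12.5 to 13.9 CPM in KO1 and KO2 cells and 20.0 and 20.2 CPM in KO3 cells, against 25.5 and 27.2 CPM in WT cells, a log2 fold change of -0.77. For both genes the KO3 libraries lay between the other KO libraries and WT. Sqle, squalene epoxidase and a rate-limiting step of the later route, ran from 35.6 to 44.0 CPM with a median of 38.5 CPM in KO cells, against 57.4 and 61.7 CPM in WT cells, and fell by 0.61 ± 0.09 (edgeR adjusted p = 0.00182). Here the 3 lines were close together. Mvk (-0.57 ± 0.08), Fdft1, which makes squalene (-0.54), Mvd (-0.49 ± 0.09), and the C4-demethylation enzymes Msmo1 and Nsdhl (both -0.38) were called too. Acat2, Hmgcs1, Tm7sf2, Hsd17b7, Ebp and Sc5d were not called; their log2 fold changes were all below 0. Hmgcs1 was at 28.5 and 34.5 CPM in KO1 cells, 37.7 and 29.1 CPM in KO2 cells and 42.5 and 49.6 CPM in KO3 cells, against 46.1 and 49.1 CPM in WT cells, so that the KO3 libraries overlapped WT, and its edgeR adjusted p was 0.225.

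Sterol transport was less uniform. Npc2, a lysosomal cholesterol carrier, ran from 212 to 294 CPM with a median of 230.1 CPM in KO cells, against 402 and 373 CPM in WT cells, and fell by 0.67 ± 0.12 on the log2 scale (edgeR adjusted p = 0.00659). Its partner Npc1 and the cytosolic sterol carrier Stard4 were not called (Stard4 -0.51, edgeR adjusted p = 0.0517). Abca1 was at 79.5 and 92.2 CPM in KO1 cells and 100.02 and 105 CPM in KO2 cells but at 55.9 and 65.2 CPM in KO3 cells, against 56.9 and 62.0 CPM in WT cells. Its KO1 and KO2 libraries lay above WT and its KO3 libraries spanned it, and over all KO cells the log2 fold change of 0.48 was not called (edgeR adjusted p = 0.176). Abcg1, a second exporter, had 0 counts in every cell library and was not tested in cells.

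Among the fatty acid genes, Elovl6, which elongates palmitate to stearate, was at 29.8 and 32.6 CPM in KO1 cells, 31.9 and 26.0 CPM in KO2 cells and 40.4 and 39.97 CPM in KO3 cells, against 73.1 and 79.1 CPM in WT cells. The log2 fold change was -1.18 ± 0.15 (edgeR adjusted p = 0.00085), of the same size as those of Insig1 and Fdps. Fasn was at 235 and 245 CPM in KO1 cells, 241 CPM in both KO2 cell libraries and 319.5 and 328 CPM in KO3 cells, against 522 and 551 CPM in WT cells. Its log2 fold change was -1.0 ± 0.14 (edgeR adjusted p = 0.00162), and all KO libraries lay far below WT. Fads2, the delta-6 desaturase, ran from 41.7 to 54.8 CPM with a median of 51.4 CPM in KO cells, against 87.3 and 84.8 CPM in WT cells, a log2 fold change of -0.80 ± 0.10 (edgeR adjusted p = 0.000929). Me1, the malic enzyme that supplies NADPH, fell by 0.47 (edgeR adjusted p = 0.00219), and the stearoyl-CoA desaturase Scd2, the delta-5 desaturase Fads1 and the phosphatidate phosphatase Lpin1 had called log2 fold changes of -0.70, -0.52 and -0.63. Scd2, which makes oleate from stearate, was at 1627 and 1779 CPM in KO1 cells, 1752 and 1629 CPM in KO2 cells and 2288 and 2399 CPM in KO3 cells, against 3011 and 3196 CPM in WT cells. Its KO3 libraries again stood between the other lines and WT.

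The other 5 fatty acid genes, which are the citrate lyase Acly, the acetyl-CoA synthetase Acss2, the carboxylase Acaca, the desaturase Scd1 and Elovl5, were not called in KO against WT cells. Acaca was at 91.0 and 104 CPM in KO1, 99.5 and 89.4 CPM in KO2 and 93.5 and 106 CPM in KO3 cells, against 114 and 120.0 CPM in WT cells; the groups did not overlap, but the log2 fold change of -0.27 had an edgeR adjusted p of 0.0605. Acaca was called lower with KO1 and KO2 alone (-0.28 ± 0.08, edgeR adjusted p = 0.0200) and with KO3 alone (-0.23 ± 0.07, edgeR adjusted p = 0.0320) against the same WT cells. Reads of Acaca can also come from a copy, Gm5182: 30.4% of its 50-base words occur in other genes, as do 39.1% of those of Acat2, 26.2% of Fdps, 22.9% of Me1 and 17.7% of Idi1, so the values of these 5 are less certain. Tm7sf2 and Fdft1 share 9.87% and 9.38%. Genes on the other strand overlap 18.3% of the exon bases of Fdft1, 13.2% of Scap and 12.1% of Hmgcs1, and whether the counting used strand is not given in the sources used here.

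Srebf2 lies on chromosome 15 at 82147181 to 82205379, Insig1 on chromosome 5 at 28071363 to 28078662, Fdps on chromosome 3 at 89093588 to 89101959 and Cyp51 on chromosome 5 at 4081145 to 4104746 in GRCm38, by GENCODE M21. Fasn lies on chromosome 11 at 120805846 to 120824547 and Acaca on the same chromosome at 84129672 to 84401651. All 6 are protein-coding genes with 3093 to 17074 exon bases.

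The count in cells leans on the 2 WT libraries, and so does the count over all genes. Calls over all genes fell by a larger share than those of the members when either WT library was left out. They also fell with libraries summed per line. Over all genes 1808 were called with every library in, and up to 2221 with a KO library left out. Leaving out either WT library left 11 members called, and leaving out a KO library left up to 27; 10 members (Srebf2, Mvk, Pmvk, Fdps, Sqle, Lss, Cyp51, Fasn, Elovl6 and Fads2) were called whichever library was left out. With libraries summed per line, 3 KO lines against 1 WT line, no member was called (0 of 39).

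**Figure D1:**
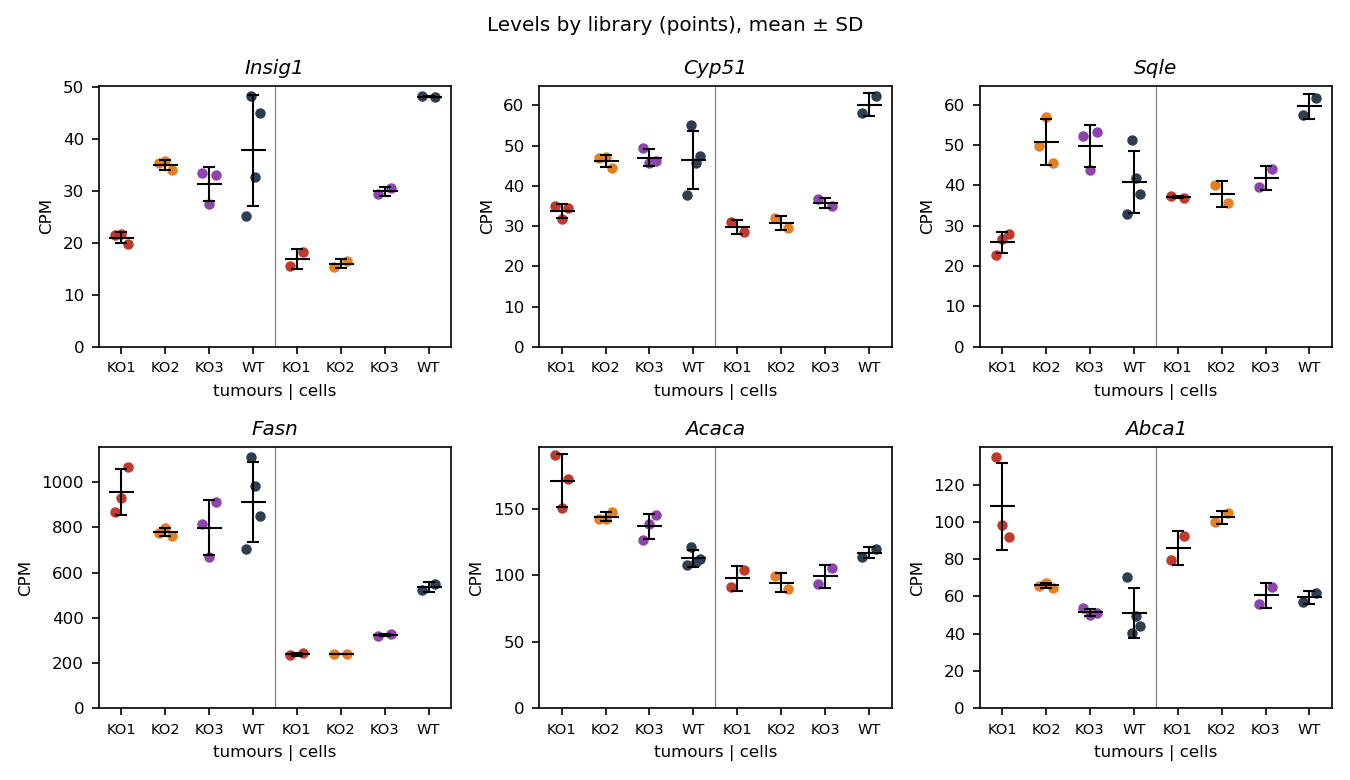
Level in CPM (linear axis from 0) of 6 members in each library, tumours left and cells right of the line, with points for libraries and bars for the mean ± SD of 2 to 4 libraries. Insig1, Cyp51, Sqle and Fasn were lower in all KO cells than in WT cells, Fasn stood higher in all tumours than in cells, Acaca was higher in all 9 KO tumours than in the 4 WT tumours, and Abca1 was highest in KO1 tumours and KO2 cells.

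In tumours 2 of the 40 genes passed. Fdps fell and Acaca rose, where 3.65% of 14200 genes were called (2.37% lower and 1.28% higher). Before adjustment 7 of the 40 had an edgeR p under 0.05, a looser cut to which these shares do not apply. The share of all genes at that cut is not given here, so the 7 is not a result about the members. The medians by role were -0.26 for SREBP regulators, -0.19 for sterol enzymes, -0.10 for transport and 0.03 for fatty acid genes, against 0.00 over all genes. Fdps was at 24.8, 32.1 and 33.9 CPM in KO1 tumours, 35.9, 35.6 and 37.4 CPM in KO2 tumours and 52.3, 33.4 and 41.1 CPM in KO3 tumours, against 62.0, 71.3, 52.1 and 46.5 CPM in WT tumours. The highest KO3 tumour overlapped WT, and the log2 fold change was -0.69 ± 0.15 (edgeR adjusted p = 0.0263). Fdps and Acaca are among the genes that share sequence with others. The sterol enzyme with the next smallest p was Mvd, at 15.1, 20.5 and 25.9 CPM in KO1, 20.9, 23.9 and 22.9 CPM in KO2 and 31.6, 23.7 and 28.7 CPM in KO3 tumours, against 29.8, 28.7, 28.3 and 35.0 CPM in WT tumours. Its KO1 and KO2 tumours lay below WT and its KO3 tumours overlapped it, and the log2 fold change was -0.38 ± 0.15 (edgeR adjusted p = 0.180).

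Acaca, whose enzyme makes malonyl-CoA in the committed step of fatty acid synthesis, was at 190.4, 151 and 173 CPM in KO1 tumours, 142, 142 and 148 CPM in KO2 tumours and 127, 139 and 145 CPM in KO3 tumours, against 108, 122, 109.9 and 113 CPM in WT tumours. All 9 KO tumours lay above all 4 WT tumours, as for 1.89% of all genes, and the log2 fold change was 0.40 ± 0.10 (edgeR adjusted p = 0.0441). The call is close to the threshold. It was kept in 3 of the 13 fits that each left out 1 library (adjusted p 0.0314 to 0.103), and in the table that the authors scaled by transcript length the log2 fold change was 0.24 (edgeR adjusted p = 0.405). Fdps was kept in 10 of those 13 fits.

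In tumours KO and WT overlapped for 39 of the 40 members, all but Acaca. Over all genes 1.89% lay wholly above WT and 1.89% wholly below, so overlap was the usual state. Of the members that fell in cells, 3 are given as examples. Idi1 was at 28.3 to 55.2 CPM with a median of 48.9 CPM in KO tumours, against 39.2, 52.7, 43.5 and 52.4 CPM in WT tumours. Elovl6 was at 35.4 to 70.8 CPM with a median of 54.2 CPM in KO tumours, against 47.1, 82.6, 56.3 and 55.5 CPM in WT tumours. Fads2 was at 34.9 to 75.9 CPM with a median of 57.1 CPM in KO tumours, against 41.7, 57.6, 53.4 and 53.4 CPM in WT tumours. KO and WT overlapped for all 3 genes and none was called. Me1, the fatty acid gene next after Acaca by p, had a log2 fold change of -0.30 ± 0.13 (edgeR adjusted p = 0.226). Of the transport genes, Abca1 (0.55 ± 0.25, adjusted p = 0.240) and Abcg1 (0.46 ± 0.26, adjusted p = 0.347) had the smallest p by edgeR and were not called.

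The regulators were not called in tumours as a whole. Srebf1 was at 37.9, 48.0 and 53.1 CPM in KO1, 46.5, 50.1 and 42.1 CPM in KO2 and 61.9, 47.0 and 64.8 CPM in KO3 tumours, against 60.5, 60.6, 58.3 and 57.6 CPM in WT tumours. KO1 and KO2 tumours lay below WT and KO3 tumours spanned it. Over all KO tumours the log2 fold change was -0.26 ± 0.12 (edgeR adjusted p = 0.242). Srebf2 (-0.29, adjusted p = 0.347), Insig1 (-0.39, adjusted p = 0.310) and Insig2 (-0.26, adjusted p = 0.295) were not called by edgeR over all KO tumours either. With KO3 tumours left out, Srebf1 (-0.38 ± 0.10, edgeR adjusted p = 0.0417), Insig2 (-0.44 ± 0.10, edgeR adjusted p = 0.0301) and Fdps (-0.82 ± 0.14, edgeR adjusted p = 0.00578) were called lower and Acaca (0.45 ± 0.10, edgeR adjusted p = 0.0224) higher, where 5.55% of all genes were called (4.05% lower and 1.49% higher). With KO3 tumours alone against WT, 0 of 40 were called by edgeR, where 0.268% of all genes were. Before adjustment 4 of the 40 had an edgeR p under 0.05, a looser cut to which the 0.268% does not apply. The share of all genes at that cut is not given here, so the 4 is not a result about the members.

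The difference between the KO effect in tumours and that in cells was tested as an interaction over all 21 libraries. Acaca (0.68 ± 0.14, edgeR adjusted p = 0.0202) and Fasn (0.89 ± 0.21, edgeR adjusted p = 0.0463) had a higher KO effect in tumours than in cells, 2 of 40 members where 0.962% of all genes were called and 0.863% were called higher. Fasn was at 869, 929 and 1068 CPM in KO1 tumours, 777, 796 and 764 CPM in KO2 tumours and 815, 669 and 914 CPM in KO3 tumours, against 703, 1109.8, 985 and 853 CPM in WT tumours, so that KO and WT overlapped throughout, whereas KO cells all lay below WT cells. The interaction term was above 0 for 37 of the 40 members and for 7499 of the 15173 genes tested. Its median was 0.43 over the members, against -0.01 over all genes. By role the median was 0.14 for SREBP regulators, 0.43 for sterol enzymes, 0.37 for transport genes and 0.56 for fatty acid genes. Abcg1 is in these counts and in the transport median, though with no counts in any cell library its term measures no effect in cells. Next by p were Cyp51 (0.77 ± 0.20, adjusted p = 0.0687) and Idi1 (1.03 ± 0.29, adjusted p = 0.107) among the sterol enzymes, Insig1 (0.82 ± 0.36, adjusted p = 0.375) and Srebf2 (0.47 ± 0.24, adjusted p = 0.479) among the regulators and Npc2 (0.57 ± 0.20, adjusted p = 0.242) among the transport genes, none of them called by edgeR. The call of Acaca was kept in 19 of 21 fits that each left out 1 library, and that of Fasn in 4 of 21. Leaving out WT cells 1 or WT cells 2 left 0 members called, and leaving out WT tumour 2 left 5. With KO3 left out of both materials 8 members were called, all higher: Idi1 (1.12), Fasn (1.08), Elovl6 (1.04), Fads2 (1.03), Scd2 (0.95), Dhcr7 (0.92), Acat2 (0.83) and Acaca (0.76). Over all genes 543 were called then, against 146 with KO3. In the table scaled by transcript length, Acaca lost its interaction call (0.62, edgeR adjusted p = 0.204) and Fasn kept it (0.91, edgeR adjusted p = 0.0471). Both lost it with no filter on low counts and with the replicate number as a block.

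Beyond the 40 members, 53 other genes of the pathway were followed, from a list of regulators, elongases, acyl-CoA synthetases and lipid handling genes. In cells 12 of 48 tested fell and 1 rose, where 9.76% of all genes were called lower and 4.99% higher. Those with the smallest p were Fabp5, a fatty acid binding protein (-1.21 ± 0.11, edgeR adjusted p = 0.00015), Acat1, the mitochondrial acetoacetyl-CoA thiolase (-0.75 ± 0.12, edgeR adjusted p = 0.00297), and Hacd2, a dehydratase of fatty acid elongation (-0.73 ± 0.12, edgeR adjusted p = 0.00344). The others that fell were the SREBP-cleaving protease Mbtps1 (-0.49), the mitochondrial citrate carrier Slc25a1 (-0.60), the elongation enzymes Tecr (-0.59), Hsd17b12 and Hacd1, and Scarb1, Dhdds, Aacs and Osbp. The 1 that rose was Nr1h3, the sterol sensor LXRα, at 0.88 CPM in the lowest, 1.54 in the median and 1.73 in the highest KO cell library, against 0.52 and 0.31 CPM in WT cells (1.76 ± 0.38, edgeR adjusted p = 0.0145). It was low in all cell libraries, and Abca1, a known LXR target, has its values above. In KO1 and KO2 cells against WT cells both were called higher (1.92 for Nr1h3 and 0.66 for Abca1). In KO3 cells alone Nr1h3 was called higher (1.35 ± 0.43, edgeR adjusted p = 0.0367) and Abca1 was not (0.03). A link between them was not tested.

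In tumours 3 of 51 of these other genes passed, where 3.65% of all genes did. Fabp5 was lower (-0.58 ± 0.11, edgeR adjusted p = 0.0191), at 17.9 to 27.5 CPM in KO tumours against 30.6 to 36.9 CPM in WT tumours, with no overlap. Hacd1, a dehydratase of fatty acid elongation that muscle expresses, was lower (-2.29 ± 0.29, edgeR adjusted p = 0.00141), and it had 0 counts in the 6 KO cell libraries against 29 counts in the WT cell libraries, at least 28.5-fold lower against a floor of 3 counts over the KO group. Gramd1b, an ER protein that moves cholesterol from the plasma membrane, was higher (1.06 ± 0.19, edgeR adjusted p = 0.0112), at 5.92 to 10.7 CPM in KO tumours against 2.51 to 4.98 CPM in WT tumours. Without KO3 tumours all 3 kept their call, Fabp5 at -0.62 ± 0.12 (edgeR adjusted p = 0.0139), Hacd1 at -2.19 ± 0.34 (edgeR adjusted p = 0.00392) and Gramd1b at 1.18 ± 0.18 (edgeR adjusted p = 0.00392).

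**Figure D2:**
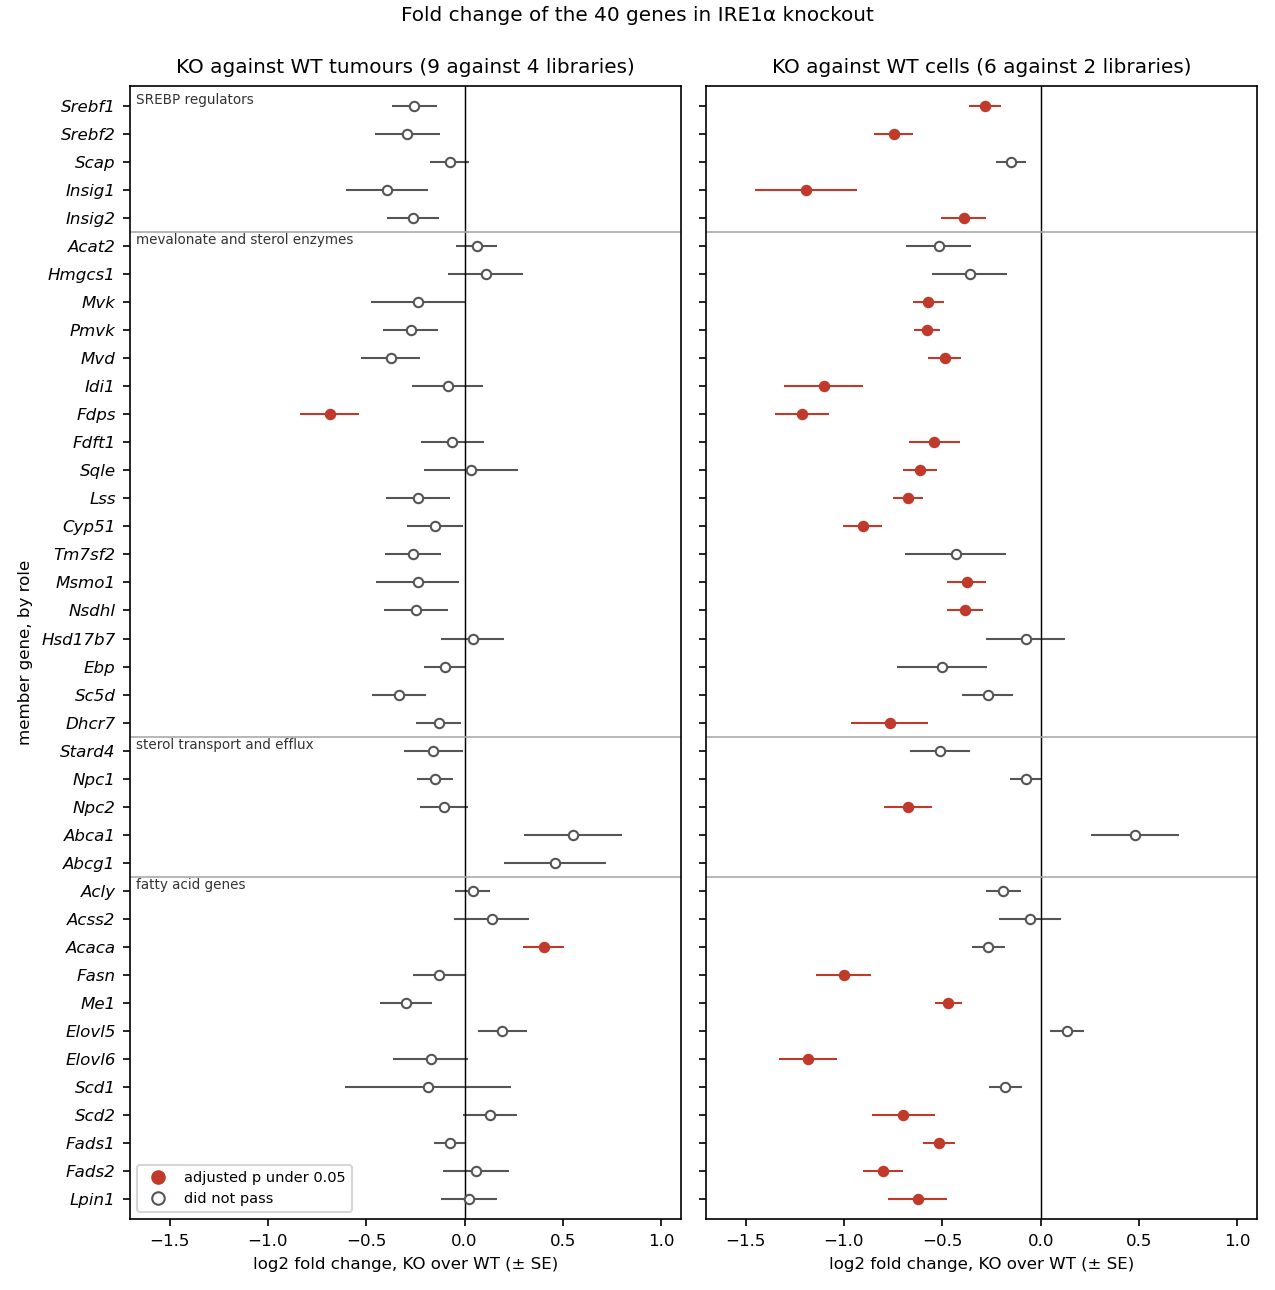
Log2 fold change of KO over WT with its SE (x axis) for each member (y axis, grouped by role), in tumours (left) and in cells (right); filled points passed the threshold and open points did not, and Abcg1 has no value in cells. Most members lie left of 0 in cells, where 24 passed, and near 0 in tumours, where Fdps and Acaca passed.

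Sterol and fatty acid genes were compared in all 8 groups by the mean log2 CPM of the 18 sterol enzymes and of the 12 fatty acid genes, each gene set against its mean in WT cells. The sterol mean was -0.64 ± 0.01 in KO1 cells, -0.73 ± 0.11 in KO2 cells and -0.40 ± 0.05 in KO3 cells (SD, n = 2 each), with WT cells at 0 ± 0.03. The fatty acid mean was -0.54 ± 0.07, -0.57 ± 0.03 and -0.38 ± 0.04 in the same KO1, KO2 and KO3 cells (SD, n = 2 each), with WT cells at 0 ± 0.02. In each KO line both means lay below both WT cell libraries, and both were nearest to WT in KO3.

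In tumours the sterol mean was -0.63 ± 0.03 in KO1, -0.34 ± 0.07 in KO2 and -0.34 ± 0.07 in KO3 (SD, n = 3 each), against -0.26 ± 0.11 in WT tumours (SD, n = 4). The fatty acid mean was -0.20 ± 0.16 in KO1, -0.30 ± 0.02 in KO2 and -0.27 ± 0.05 in KO3 (SD, n = 3 each), against -0.30 ± 0.11 in WT tumours (SD, n = 4). In KO1 tumours the sterol values lay below those of every other tumour, whereas their fatty acid values overlapped the rest. KO2, KO3 and WT tumours overlapped in both means.

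Taken as a difference, the sterol mean less the fatty acid mean, set against WT of the same material, was -0.10 ± 0.07 in KO cells (SD, n = 6) and -0.22 ± 0.21 in KO tumours (SD, n = 9), with WT cells at 0 ± 0.02 and WT tumours at 0 ± 0.11. By line it was -0.47 ± 0.17 in KO1 tumours, -0.08 ± 0.07 in KO2 tumours and -0.11 ± 0.05 in KO3 tumours. The difference in tumours rested mostly on KO1: without that line it was -0.09. In cells it was -0.10 in KO1, -0.16 in KO2 and -0.03 in KO3. These means carry no test, since the genes were chosen with results of these data known.

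**Figure D3:**
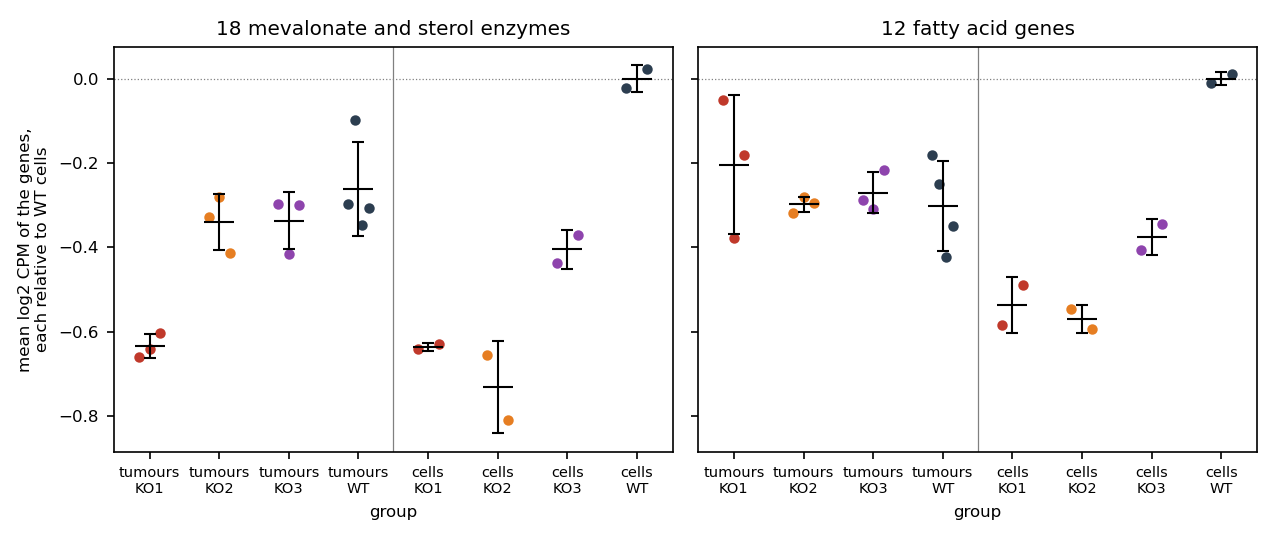
Mean log2 CPM of the 18 mevalonate and sterol enzymes (left) and the 12 fatty acid genes (right), each gene relative to its mean in WT cells, in the 8 groups; points are libraries and bars the mean ± SD. KO cells lie below WT cells in both panels, and KO1 tumours lie below the other tumours for the sterol enzymes and not for the fatty acid genes.

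The KO lines differed from each other in cells. In KO3 cells against KO1 and KO2 cells, 18 of 39 members were higher and Abca1 was lower, where 32.6% of all genes were called, 17.1% higher and 15.5% lower. The 18 comprised 10 sterol enzymes, 4 fatty acid genes, 2 SREBP regulators and 2 transport genes. Insig1 had a log2 difference of 0.86 ± 0.08 (edgeR adjusted p = 9.67e-06), from the values given above. Ebp, the sterol isomerase, was at 51.4 and 50.6 CPM in KO3 cells, against 33.0 and 29.6 CPM in KO1 and 29.2 and 31.2 CPM in KO2 cells, with WT cells at 54.98 and 51.3 CPM. KO3 cells were at about the WT level for Ebp, and the difference from KO1 and KO2 was 0.73 ± 0.07 (edgeR adjusted p = 1.26e-05). Dhcr7 (0.61 ± 0.08, edgeR adjusted p = 0.000105), at 20.0 and 20.2 CPM in KO3 cells, stood between the other KO lines, at 12.5 to 13.9 CPM, and WT cells, at 25.5 and 27.2 CPM.

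Of the fatty acid genes, Fasn (0.43 ± 0.06, edgeR adjusted p = 0.000212), Scd2 (0.46), Lpin1 (0.42) and Elovl6 (0.42) were higher in KO3 cells than in the other KO cells and lower than in WT. Stard4 (0.43) and Npc2 (0.34) were higher and Abca1 (-0.63 ± 0.09, edgeR adjusted p = 0.000179) lower in KO3 cells. The remaining called sterol enzymes were Idi1 (0.58), Hmgcs1 (0.50), Acat2 (0.38), Sc5d (0.37), Hsd17b7 (0.37), Fdps (0.35), Fdft1 (0.28) and Cyp51 (0.24), and of the regulators Srebf2 (0.18) was called as well. The other 12 members that fell in KO cells (Srebf1, Insig2, Mvk, Pmvk, Mvd, Sqle, Lss, Msmo1, Nsdhl, Me1, Fads1 and Fads2) were not called between KO3 and the other KO lines. Without the second KO3 library 12 members were called. Between KO1 and KO2 cells, a comparison added after the values were seen, 0 of 39 members were called by edgeR, where 3.0% of all genes were, and 0 by DESeq2. Before adjustment 9 had an edgeR p under 0.05, a looser cut to which the 3.0% does not apply. The share of all genes at that cut is not given here, so the 9 is not a result about the members.

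KO1 and KO2 cells together, and KO3 cells alone, were also set against the same WT libraries. KO1 and KO2 together had 31 members called lower and 1 higher, where 35.9% of all genes were called, 19.3% lower and 16.6% higher, and the higher one was Abca1 (0.66 ± 0.11, edgeR adjusted p = 0.00111). KO3 alone had 27 lower and 0 higher, where 31.6% of all genes were called and 17.6% were called lower. Hmgcs1 (-0.04), Ebp (-0.06), Sc5d (-0.04), Npc1 (-0.03) and Abca1 (0.03) were near 0 in KO3 cells and were not called.

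In tumours KO3 differed from KO1 and KO2 in 3 of 40 members, where 1.88% of all genes were called (1.19% higher and 0.697% lower). Insig2 was at 46.7, 46.7 and 39.0 CPM in KO3, against 32.7, 30.7 and 29.0 CPM in KO1 and 34.1, 34.1 and 32.8 CPM in KO2 tumours, a log2 difference of 0.45 ± 0.10 (edgeR adjusted p = 0.0446). KO3 tumours lay above the other KO tumours and among WT tumours, which were at 53.2, 44.2, 37.9 and 37.3 CPM. Nsdhl, a C4 decarboxylase of the sterol route, was at 29.3, 25.8 and 23.4 CPM in KO3, against 34.8 to 42.6 CPM in KO1 and KO2 tumours, and differed by -0.57 ± 0.13 (edgeR adjusted p = 0.0395); this was below WT tumours too, at 35.2 to 49.2 CPM. Abca1 was at 53.6, 49.8 and 51.3 CPM in KO3, against 135, 98.2 and 92.0 CPM in KO1 and 65.9, 67.3 and 64.8 CPM in KO2 tumours, and differed by -0.72 ± 0.16 (edgeR adjusted p = 0.0362). No fatty acid gene was called; Lpin1 (0.31 ± 0.12, adjusted p = 0.290) and Elovl6 (0.41 ± 0.17, adjusted p = 0.328) had the smallest p by edgeR. Of the 9 fits that each left out 1 tumour, Insig2 was called in 0 and Nsdhl and Abca1 in 2 each.

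KO1 tumours stood apart from KO2 tumours in the sterol enzymes, in a comparison added after the values were seen. Sqle was at 22.8, 26.8 and 27.9 CPM in KO1 tumours, against 49.7, 57.0 and 45.6 CPM in KO2 tumours, with KO3 tumours at 43.8 to 53.2 CPM and WT tumours at 32.9 to 51.1 CPM. Msmo1 was at 26.4, 22.4 and 21.9 CPM in KO1 tumours, against 42.5, 45.1 and 39.99 CPM in KO2 tumours, with KO3 tumours at 39.3 to 45.1 CPM and WT tumours at 36.4 to 51.6 CPM. For both, the KO1 tumours lay below every other tumour, and the log2 differences from KO2 were -1.03 ± 0.16 (edgeR adjusted p = 0.0179) and -0.91 ± 0.14 (edgeR adjusted p = 0.0169). These were the 2 members called of 40 by edgeR, where 0.663% of all genes were called and 0.435% were called lower. Those shares are for edgeR and do not apply to DESeq2, which called 8 members. The share of all genes that DESeq2 called is not given here, so the 8 cannot be set against it. For 10 of the 18 sterol enzymes all KO1 tumours lay below all KO2 tumours, as for 9.84% of all genes, and for 1 of 12 fatty acid genes. All KO1 tumours lay above all KO2 tumours for 5 of 12 fatty acid genes, 3 of 5 transport genes and 1 of 18 sterol enzymes, as for 18% of all genes. The median was -0.37 over sterol enzymes and 0.12 over fatty acid genes. Insig1, at 21.5, 21.8 and 19.8 CPM in KO1 tumours against 35.4, 35.8 and 34.1 CPM in KO2 tumours, had a log2 difference of -0.80 ± 0.21 and was not called (edgeR adjusted p = 0.0880). Leaving out single tumours, Sqle was called in 0 and Msmo1 in 1 of 6 fits. The KO1 tumours also had the highest macrophage markers of any group, 590 to 756 CPM summed over 8 markers, against 326 to 390 CPM in KO2, 359 to 570 CPM in KO3 and 211 to 572 CPM in WT tumours. Their skeletal muscle markers, summed over 8 genes, were at 427, 1078 and 504 CPM, against 15.98, 846 and 82.6 CPM in KO2, 1.43 to 5.86 CPM in KO3 and 1.25 to 61.4 CPM in WT tumours other than WT tumour 1. The part of macrophage and muscle RNA in the result was not tested.

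**Figure D4:**
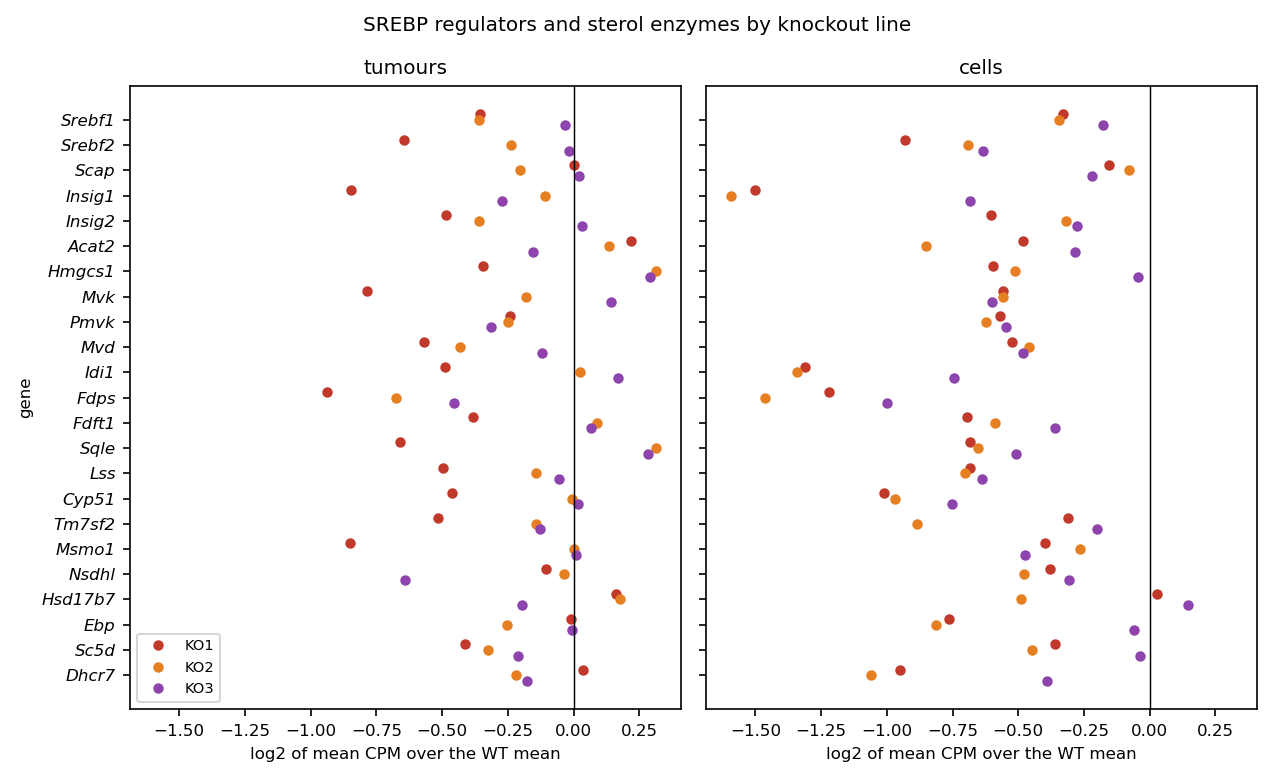
Log2 of the mean CPM of each KO line over the WT mean (x axis) for the SREBP regulators and sterol enzymes (y axis), in tumours (left) and cells (right), with points for the 3 lines. In cells KO3 lies nearest to 0 for Insig1, Ebp and Dhcr7, and in tumours KO1 lies lowest for Insig1, Sqle and Msmo1.

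Between tumours and cells most genes of the table differed, and the median of all genes shifted by 0.16 on the log2 scale. Over both directions the share of members called stood at or below that of all genes and is not a result about the members. In WT tumours against WT cells 17 members were lower and 5 higher of 40, where 56.0% of all genes were called (23.1% lower and 32.9% higher). In KO tumours against KO cells 12 were lower and 14 higher, where 74.3% were called (30.4% lower and 43.8% higher). Each comparison mixes growth in the mouse with the RNA of host cells. Of the 5 regulators 4 were called lower in WT tumours. Srebf2 was at 92.2, 119, 96.7 and 103 CPM in WT tumours against 247 and 259.6 CPM in WT cells, a log2 fold change of -1.30 ± 0.20 (edgeR adjusted p = 1.29e-05). Srebf1 (-1.05 ± 0.15, edgeR adjusted p = 5.05e-06), Insig2 (-1.13 ± 0.18, edgeR adjusted p = 1.77e-05) and Scap (-0.69 ± 0.12, edgeR adjusted p = 6.95e-05) were lower too, and Insig1 was not called. In KO tumours against KO cells the same 4 were lower, by -1.01 for Srebf1, -0.99 for Insig2, -0.83 for Srebf2 and -0.60 for Scap, and Insig1 was higher, by 0.47. Without line KO3, 26 members were called in KO tumours against KO cells, 15 higher and 11 lower, of which 24 were called with it. Stard4 and Scd1 lost their call (edgeR adjusted p = 0.326 and 0.110), Insig1 was higher by 0.77, and Dhcr7, below, was at -0.36 against -0.62 with KO3.

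Sterol enzymes split within each genotype. Nsdhl (1.21 ± 0.21) and Acat2 (0.58), which joins acetyl-CoA units at the start of the route, were higher and Dhcr7 (-1.28 ± 0.19), Pmvk (-0.97 ± 0.18), Mvd (-0.97 ± 0.18), Ebp (-0.64) and Lss (-0.62) were lower in WT tumours than in WT cells. In KO tumours against KO cells, Nsdhl (1.36 ± 0.12), Acat2 (1.18 ± 0.10), Idi1 (1.15 ± 0.16), Fdps (0.55), Hmgcs1 (0.41), Cyp51 (0.40) and Tm7sf2 (0.40) were higher and Mvd (-0.84 ± 0.11), Pmvk (-0.66), Dhcr7 (-0.62) and Sc5d (-0.44) were lower. Nsdhl and Acat2 were thus called higher, and Mvd, Pmvk and Dhcr7 lower, in both genotypes.

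The fatty acid genes split as well. Fads1 was at 65.2, 70.1, 58.7 and 68.9 CPM in WT tumours against 175 and 174 CPM in WT cells, and was the member with the smallest edgeR adjusted p in that comparison (1.19e-09, log2 fold change -1.41 ± 0.11). In KO it ran from 55.002 to 73.5 CPM with a median of 64.1 CPM in tumours, against 109.9 to 133 CPM with a median of 123 CPM in cells, a log2 fold change of -0.95 ± 0.07 (edgeR adjusted p = 5.34e-11). Fasn was higher in tumours of both genotypes, by 1.66 ± 0.12 in KO (edgeR adjusted p = 8.46e-11) and by 0.77 ± 0.19 in WT (edgeR adjusted p = 0.00191); the interaction above is the test of that difference. In KO tumours against KO cells, Scd1 (0.83), Elovl6 (0.69) and Acaca (0.63) were higher and Elovl5 (-0.31) was lower. In WT tumours against WT cells, Scd2 (-1.01), Fads2 (-0.74), Lpin1 (-0.55), Elovl5 (-0.39) and Acly (-0.30) were lower.

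Among transport genes, Npc2 was higher in tumours of both genotypes (1.51 ± 0.11 in KO and 0.94 ± 0.18 in WT) and Npc1 lower (-0.77 ± 0.08 and -0.70 ± 0.13). Stard4 was lower, by -0.32 in KO and -0.69 in WT. Abcg1 was at 6.44 to 19.7 CPM in KO tumours and 7.29 to 9.01 CPM in WT tumours, with 0 counts in every cell library. Against a floor of 3 counts over the cell group, it was at least 466-fold higher in KO tumours than in KO cells and at least 107-fold higher in WT tumours than in WT cells. Of 8 macrophage markers 5 were at 0 in every cell library, and their sum was 211 to 756 CPM in tumours and 1.56 to 2.53 CPM in cells; their part in the Abcg1 level was not tested.

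Scd1, a stearoyl-CoA desaturase that adipocytes and sebaceous glands express, was at 1101 CPM in WT tumour 1, 822 CPM in KO1 tumour 1, 522 CPM in KO3 tumour 3 and 447 CPM in KO3 tumour 2, and at 215 to 318 CPM in the other 9. The same 4 tumours had the highest sums over 8 adipocyte markers, at 913, 364, 690 and 328 CPM, against 43.0 to 172 CPM in the other 9. In cells the sums were 22.2 to 43.4 CPM and 5 of the 8 markers were at 0. The part of these markers in the Scd1 level was not tested. Scd1 was not called between KO and WT tumours, and its SE there was the largest of the fatty acid genes.

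Abca1 and Abcg1, which macrophages express, were highest in KO1 tumours, where macrophage marker sums were highest. Abca1 was at 92.0 to 135 CPM in KO1, 64.8 to 67.3 CPM in KO2 and 49.8 to 53.6 CPM in KO3 tumours, against 40.4 to 70.3 CPM in WT tumours. Abcg1 was at 11.6 to 19.7 CPM in KO1 tumours and at 6.44 to 10.9 CPM in all others. The part of macrophage RNA in these levels was not tested.

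**Figure D5:**
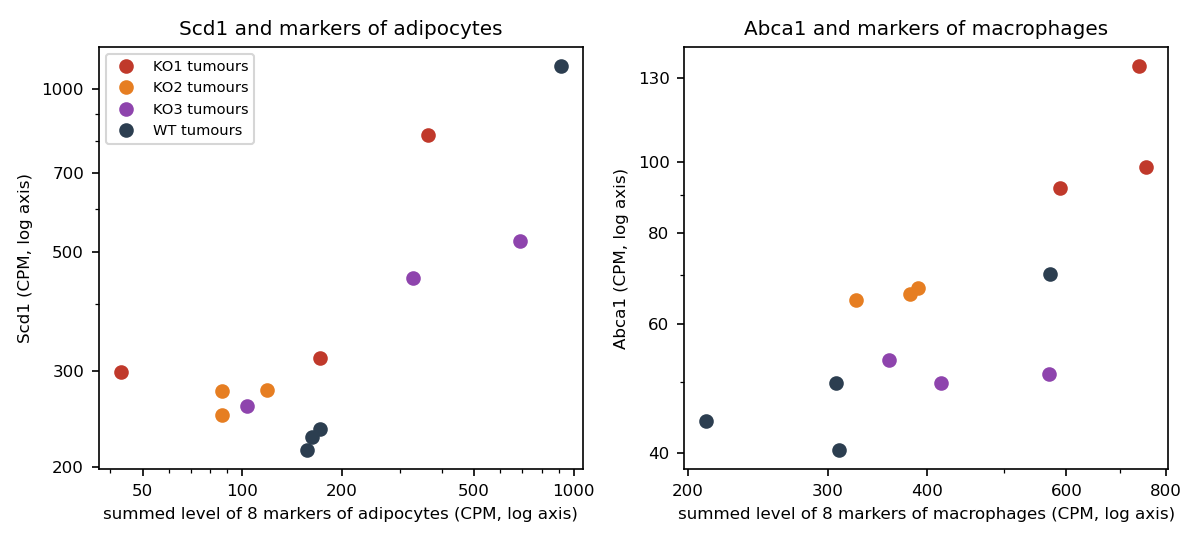
Scd1 level against the summed level of 8 adipocyte markers (left) and Abca1 level against that of 8 macrophage markers (right) in the 13 tumours, in CPM on log axes, by group. The 4 tumours with the highest Scd1 levels, 447 to 1101 CPM, are those with the highest adipocyte sums, and the 3 KO1 tumours have the highest Abca1 levels and macrophage sums.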

How the data were processed

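The authors deposited estimated counts per gene in a plain table, used here, and in a second table scaled for transcript length. Between 7.96% and 10.2% of a library's values are not whole numbers. The submitters' processing notes name Salmon 1.5.2, STAR, Trim Galore 0.6.7 and, as genome build, GRCm38. They hold no settings. The plain estimated counts were rounded to whole numbers, filtered with filterByExpr and given TMM factors. The test was edgeR's quasi-likelihood one (edgeR 4.0.16, R 4.3.3), with p-values adjusted by Benjamini-Hochberg over all genes tested, at a threshold of 0.05. The SE of a log2 fold change was taken from it and its F value. Log2 CPM used a prior count of 2, and a floor of 3 counts stands for a count of 0 and covers counting error only. KO against WT was fitted by genotype in the 8 cell and the 13 tumour libraries, the interaction and tumours against cells by genotype and material over all 21, and lines by line within a material.

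The members and all gene lists were chosen with earlier results of these data known. In each comparison and role, up to 4 called members with the smallest p were to be given with their values, with Srebf1, Srebf2 and Insig1 always, and up to 3 called genes of the other pathway list; all called members are named. Members were matched by gene symbol. Positions are from GENCODE M21 and promoters from RefSeq, GRCm38.p6, in which the 9 members not matched were not searched. Shared sequence is the share of the 50-base words of a gene's exons found in other genes.

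The alternatives tried were DESeq2 1.42.0, RLE scaling, keeping all low genes, the length-scaled table, a block for the replicate number, each line as a group, sums per line, voom of limma 3.58.1 with line as a random block, leaving out each library or line, and treatments of the WT tumours. Comparisons of KO1 with KO2 and fits without KO1 were added after the data were seen. Where leaving out a library left 1 library in a group, it was taken to vary as the other groups do. Replicates of every group differed by more than sampling noise (lowest chi-square per degree of freedom 7.98). The steps were tested on simulated data. Figures were drawn with matplotlib 3.10.9.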

Additional observations from a re-analysis of the deposited data

Results flagged for a closer look

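Scd1 in WT tumours was picked out because 1 library lay far from the others: WT tumour 1 was at 1100 CPM and the other 3 WT tumours at 215 to 235 CPM, a gap of 0.978 of the whole range. Of 45 values tested in this way for the members, 1 stood out, and chance marks about 1 in 20. WT tumour 1 also had the highest adipocyte marker sum, 913 CPM, against 157 to 171 CPM in the other WT tumours, whose part in the Scd1 level was not tested.

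Acaca and Fasn were picked out because the KO effect differed between tumours and cells by the interaction test. The KO effect in tumours less that in cells was 0.6838 on the log2 scale for Acaca (edgeR adjusted p = 0.0202) and 0.8895 for Fasn (edgeR adjusted p = 0.0463). Acaca was higher in 9 of 9 KO tumours than in any WT tumour and lower in 6 of 6 KO cell libraries than in either WT cell library. Fasn was lower in 6 of 6 KO cell libraries and overlapped with WT in tumours.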

How the results depend on the processing

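The 3 KO lines are set against 1 WT line, so the genotype cannot be told apart from the WT line, and WT cells have 2 libraries. Of 1703 alternative values for members called in the comparisons above, 1457 kept their direction and their call. The other 246 lost their call and 0 changed direction. Members not called above are not among these values, so calls gained do not show in them. With line as a random block, limma voom called 16 members in KO against WT cells, all lower, where it called 601 of all genes. Taking each line as a group gave 33 lower and 1 higher in cells, where 4780 of all genes were called. In KO against WT cells the 24 calls became 0 with libraries summed per line and ran from 11 (without either WT library) to 27 with single libraries left out. In KO against WT tumours the 2 calls became 1 with no filter on low counts, 1 in the length-scaled table, 1 with WT tumours 3 and 4 summed, 4 without line KO3, and 0 without lines KO1 and KO2, without line KO1, with libraries summed per line, by limma voom with line as a random block or with WT tumours 1 and 4 left out; leaving out single libraries gave 0 (without WT tumour 1, 2 or 3) to 2.

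For the interaction the 2 calls became 1 with RLE scaling, 8 by DESeq2, 0 with no filter, 1 in the length-scaled table, 12 with lines as groups, 8 without line KO3, 0 without lines KO1 and KO2, 1 with WT tumours 3 and 4 summed and 0 with WT tumours 1 and 4 left out, and ran from 0 to 5 with single libraries left out. The calls of KO3 against KO1 and KO2 ran from 12 to 20 in cells with single libraries left out, and the 3 calls in tumours became 5 by DESeq2, 1 with no filter, 1 in the length-scaled table and 0 to 1 with single libraries left out. In KO1 against KO2 cells the 0 calls became 1 with RLE scaling, 3 with no filter and 0 to 2 with single libraries left out, and in tumours the 2 became 8 by DESeq2 and 0 to 1. Tumours against cells gave 17 to 23 calls in WT and 23 to 27 in KO with single libraries left out. The sterol less fatty acid shift kept its sign in cells and tumours in every setting run. In KO against WT and in the interaction, the number of calls over all genes changed with the setting as well. Between the KO lines, the numbers over all genes in each setting are not given here. The causes of these changes were not tested.

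Replicate numbers are shared between groups. The deviations of same-numbered libraries had r from -0.045 to 0.107 over 12 pairs of cell libraries and from -0.379 to 0.135 over 18 pairs of tumour libraries. With 2 libraries per cell group, both replicates of a pair of groups give the same r, so the 12 values are not separate. The groups are too small to tell from r whether a number marks a shared batch. With the replicate number as a block, 21 members were called in KO against WT cells, 0 in KO against WT tumours and 0 for the interaction.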

Other observations

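Among the 53 other genes of the pathway, 14 of 48 tested were higher and 7 lower in KO3 cells than in KO1 and KO2 cells, where 17.1% of all genes were called higher and 15.5% lower. Of the 21, 2 are described here, chosen after their values were seen. Gramd1b was at 18.9 and 20.7 CPM in KO3 cells, against 41.0 and 40.3 CPM in KO1 and 49.5 and 47.8 CPM in KO2 cells, with WT cells at 16.3 and 17.7 CPM, so that KO3 stood near WT. Its log2 difference between KO3 and the other KO lines was -1.17 ± 0.07 (edgeR adjusted p = 7.04e-07). Soat1, which esterifies cholesterol in the ER, was at 5.16 and 5.72 CPM in KO3 cells, against 3.36 and 3.02 CPM in KO1 and 1.31 and 1.61 CPM in KO2 cells, with WT cells at 2.53 and 2.47 CPM. Its difference was 1.33 ± 0.16 (edgeR adjusted p = 6.42e-05), and KO3 lay above every other cell line. In KO1 against KO2 cells Soat1 (1.11 ± 0.22, edgeR adjusted p = 0.0178), Dgat2, which makes triglyceride (0.81 ± 0.13, edgeR adjusted p = 0.00568), and Tmem97 (0.33 ± 0.08, edgeR adjusted p = 0.0368) were higher.

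In tumours Dgat2 was lower (-0.77 ± 0.14, edgeR adjusted p = 0.0163) and Gpam, which starts glycerolipid synthesis, higher (0.74 ± 0.17, edgeR adjusted p = 0.0493) in KO3 than in KO1 and KO2. By the interaction test the KO effect was higher in tumours than in cells for 3 of 51, where 0.863% of all genes were called higher. They were Acat1 (0.93 ± 0.22, edgeR adjusted p = 0.0458), Mbtps1 (0.61 ± 0.15, edgeR adjusted p = 0.0463) and Hacd1. Hacd1 was lower in KO in both materials, and with 0 counts in KO cells its effect in cells has no finite size. Between tumours and cells 17 were higher and 14 lower of 51 in WT, and 24 higher and 14 lower in KO, where 32.9% of all genes were called higher and 23.1% lower in WT, and 43.8% and 30.4% in KO; these counts are about the background. Those with the smallest p in both were Acsl4, an acyl-CoA synthetase for arachidonate (-2.31 ± 0.11 in KO and -2.44 ± 0.17 in WT, edgeR adjusted p = 1.31e-13 and 4.5e-10), Acat1 (2.62 ± 0.13 in KO and 1.68 ± 0.21 in WT) and Apoe, a lipid carrier that macrophages express, which was higher in tumours.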
